A study of Mus musculus with 23 samples.

Results

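Neurons pass signals at synapses by releasing transmitter from vesicles, and the results below describe 35 genes of that release machinery in the mouse hippocampus. The genes were chosen by name, as a list of presynaptic proteins of the fusion complex, its calcium sensors and regulators, the active zone, its calcium channels, the vesicle itself, glutamate uptake into vesicles and vesicle retrieval. All 35 were present among the 21785 genes of the table, and all 35 passed the filter on low values, which was a mean of at least 0.5 RPKM. RPKM, the unit throughout, divides reads by gene length in kilobases and by the size of the library, so levels are per length and can be set side by side between genes.

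Messenger RNA was sequenced in 23 hippocampal libraries of 4 genotypes. WT mice carry no duplication (5 libraries). Dp16 mice, a model of Down syndrome whose full name is Dp(16)1/Yey, carry an extra copy of a segment of chromosome 16 (7 libraries). The libraries with the label Dp16/D-KO (6 libraries) carry the same duplication, with a Dyrk1a knockout that the title describes as normalization, and those with the label Dp16;D-KO/K-KO (5 libraries) have Kcnj6 knocked out as well. All groups except WT share the duplication, and no group has a knockout without it. By their labels the libraries form 2 sets, called batches here. Batch 1 holds 10 libraries, given as total RNA from C57BL/6 mice of 2 to 3 months. Batch 2 holds 13 libraries, given as polyA RNA from mice over 90% C57/B6, with no age in the labels. Both batches used oligo(dT) beads, and each genotype is in both, with 2 and 3 libraries for WT and for Dp16;D-KO/K-KO, 3 and 4 for Dp16, and 3 and 3 for Dp16/D-KO. Nothing in the labels says whether a library came from 1 mouse or from pooled mice.

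In release, syntaxin-1 and SNAP-25 in the plasma membrane zip together with synaptobrevin in the vesicle membrane, and synaptotagmin triggers fusion when calcium enters through channels held at the active zone. NSF and its SNAP adaptors then take the fused complex apart, and dynamin, endophilin and amphiphysin help to retrieve the vesicle. In the hippocampus most of these synapses release glutamate, which VGLUT1 loads into vesicles.

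Some values did not follow the labels. Dyrk1a was 0.52 higher in Dp16 than in WT on the log2 scale, and against Dp16 it differed by -0.01 (95% interval -0.09 to 0.08) in the libraries with the label Dp16/D-KO and by 0.02 (-0.07 to 0.11) in those with the label Dp16;D-KO/K-KO. Kcnj6 differed from Dp16 by -0.06 (-0.23 to 0.10) in the latter. Neither gene was detectably lower where the label names its knockout, so these groups are called by their labels throughout. RPKM is a value for the whole gene, and how its reads were counted is not given. These values therefore cannot show whether a knockout is present. Of Ddx3y, a gene of the Y chromosome, WT F1 had 12.65 RPKM and WT M3 had 0.01, where the other F libraries had at most 0.03 and the other M libraries at least 9.59. On a score from 200 genes that differ between batches, WT M3 (0.05) lay near the libraries labelled batch 1 (-0.07 to 0.04) and far from the others of batch 2 (0.95 to 1.07). The main results that use WT are therefore also given without these 2 libraries. Depth, read from the steps between low values, was put at about 14.65 to 17.4 M reads a library. At the depth so chosen, 43.2% to 58.7% of those values came within 0.15 of whole reads. A depth fixed beforehand would give 30% by chance. The depth here was picked to fit these same values, so a share above 30% is no test of the estimate. Hippocampal markers were present in every library, with Neurod6 at 70.4 to 145.4 RPKM, Wfs1 at 33.6 to 62.8 and Prox1 at 14.1 to 22.5. Of thalamic markers, Tcf7l2 had 1.13 to 2.35 RPKM, Ramp3 1.91 to 4.1 and Prkcd 7.43 to 20.66. The summed level of 12 thalamic markers was 98.2 to 115.5 RPKM in WT. In the libraries with the label Dp16;D-KO/K-KO it was 97.95 to 177.9. Choroid plexus RNA varied most, with Ttr between 8.36 and 3760 RPKM.

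The 35 genes lie on 16 chromosomes. None lies on chromosome 16, so no member is in the duplicated segment, and 2 lie on X (Syp and Syn1). Promoter sequence, the 250 bases before a gene start given by RefSeq in GRCm38.p6, was found for 28 of the 35. The letters TTCAGCACC are the left part of RE1, the element bound by the repressor REST, which keeps neuronal genes silent outside neurons. On either strand they occurred in 2 of the 28 members, Syn1 and Ppfia3, and in 0.348% of 27025 genes. The cAMP response element TGACGTCA, the site of CREB, occurred in 2 members, Syn1 and Sh3gl2, and in 1.77% of all genes. The GC box GGGCGG occurred in 19 members and 35.4% of all genes, the NRF1 palindrome in 4 members (Nsf, Bsn, Pclo and Syp) and 4.23%, and TATAAA in 1 member (Sv2b) and 14.3%. No match of one of these motifs overlapped another in the sequences shown. The promoters below are shown because they hold the rarer motifs, or, for Napb, because that gene came nearest to a difference between genotypes. Each reads 5′ to 3′ on the gene's own strand and ends at the base before that start, and capitals mark TTCAGCACC or TGACGTCA. The stretch of Syn1 (chrX:20920919-20921168, minus strand) has TTCAGCACC at -232 to -224 and TGACGTCA at -159 to -152, counted from the start. That of Ppfia3 (chr7:45367020-45367269, minus strand) has TTCAGCACC at -46 to -38. That of Sh3gl2 (chr4:85205206-85205455, plus strand) has TGACGTCA at -37 to -30. That of Napb (chr2:148732421-148732670, minus strand) has no match to any of the 5 motifs and is 61.2% G and C. The RefSeq gene model of Napb as a whole reaches slightly past the start used, to 148732425. A match is a run of letters and no measure of binding.
Syn1: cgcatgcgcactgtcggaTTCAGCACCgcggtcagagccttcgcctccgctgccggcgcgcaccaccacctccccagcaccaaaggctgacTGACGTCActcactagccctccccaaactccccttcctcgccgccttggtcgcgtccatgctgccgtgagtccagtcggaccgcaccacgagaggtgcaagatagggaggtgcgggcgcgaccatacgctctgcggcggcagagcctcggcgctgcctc
Ppfia3: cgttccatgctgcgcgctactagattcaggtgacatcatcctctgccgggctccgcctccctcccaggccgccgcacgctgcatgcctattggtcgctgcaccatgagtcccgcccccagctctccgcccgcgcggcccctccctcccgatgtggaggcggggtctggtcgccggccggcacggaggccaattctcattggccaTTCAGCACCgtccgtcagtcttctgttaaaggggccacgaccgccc
Sh3gl2: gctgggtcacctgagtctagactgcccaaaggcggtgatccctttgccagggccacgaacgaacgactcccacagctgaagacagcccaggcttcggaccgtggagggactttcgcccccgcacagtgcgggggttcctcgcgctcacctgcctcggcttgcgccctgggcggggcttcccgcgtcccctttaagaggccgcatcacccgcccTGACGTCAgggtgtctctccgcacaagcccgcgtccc
Napb: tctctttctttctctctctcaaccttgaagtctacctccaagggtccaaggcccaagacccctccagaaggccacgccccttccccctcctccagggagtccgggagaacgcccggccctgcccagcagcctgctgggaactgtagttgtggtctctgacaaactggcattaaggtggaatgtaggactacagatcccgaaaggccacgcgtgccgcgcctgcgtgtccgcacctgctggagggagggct

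The release genes were among the most abundant messages of WT hippocampus. Together they made up 1.67% to 2.15% of the RPKM sum of a library. By mean WT level 4 of the 35 were among the top 50 of 19064 genes with values, 7 among the top 100 and 23 among the top 1000. The levels spanned 224-fold, from Snap25 to Slc17a6. Of the 34 pairs of neighbours in the order, 26 had WT ranges that overlapped, so the order holds only in broad steps.

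In the fusion complex, Snap25, a plasma membrane SNARE, stood highest of all members, with 893.2 RPKM in WT F1, 1028 in F2, 806.3 in M2, 790.6 in M3 and 1132 in M4. Its mean was 930.0 ± 147.1 (SD, n = 5), rank 19 of all genes. Vamp2, the vesicle SNARE synaptobrevin-2, followed at 611.3 ± 95.95, while their partner Stx1a, syntaxin-1A, was at 43.7 ± 2.95. Messages of proteins that assemble into 1 complex thus differed by more than the spread between libraries.

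Among calcium sensors, Syt1, the sensor of fast release, had 310.8 ± 18.93 RPKM in WT. Rph3a, a Rab3 effector named rabphilin, had 96.6 ± 18.1. The high-affinity sensors Doc2b and Doc2a had 32.1 ± 2.10 and 5.26 ± 0.75. Exons of Doc2a share 1103 bases with those of Ino80e on the opposite strand, a gene at 27.0 RPKM, and the use of strand in counting is a point not given in the sources used here, which leaves the values of Doc2a uncertain. The complexins, which clamp and then support fusion, were both abundant, with 349.6 ± 51.51 RPKM for Cplx2 and 281.6 ± 26.59 for Cplx1.

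Of the genes that take the complex apart, Nsf, the ATPase, had 322.1 ± 22.18 RPKM in WT. Its adaptors Napb (beta-SNAP) and Napa (alpha-SNAP) had 126.4 ± 6.16 and 105.8 ± 4.78. Dnajc5, cysteine string protein, is a vesicle chaperone and is only listed beside these genes. It had 72.8 ± 7.08.

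Genes of the active zone scaffold stood lower. The priming factor Unc13a (Munc13-1) had 55.4 ± 4.47 RPKM in WT, with 495 exon bases shared with Colgalt1 on the opposite strand. Ppfia3 (liprin-alpha-3) had 50.2 ± 3.22, Erc2 (a scaffold also named CAST) 40.1 ± 5.40 and Bsn (bassoon) 38.05 ± 2.40. Rims1, which ties vesicles to channels, had 26.1 ± 2.45, and Pclo (piccolo) had 17.4 ± 1.97. The channel subunits Cacna1a (P/Q type) and Cacna1b (N type) had 26.4 ± 2.13 and 19.6 ± 1.44.

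Vesicle proteins spanned a wide range, from Syp (synaptophysin) at 563.5 ± 34.62 RPKM in WT to Syngr3 (synaptogyrin-3) at 68.9 ± 5.14. Between them lay Rab3a, the vesicle GTPase, at 356.9 ± 73.56, Sncb (beta-synuclein) at 333.2 ± 70.5, and the synapsins Syn1 and Syn2, which tether the vesicle pool, at 238.7 ± 53.07 and 199.6 ± 22.97. Syngr1, Sv2a and Sv2b had 112.1 ± 7.90, 101.3 ± 7.34 and 84.2 ± 8.38. Of the glutamate carriers, Slc17a7 (VGLUT1) was at 565.9 ± 46.33 and Slc17a6 (VGLUT2), which is typical of the thalamus, was at 4.15 ± 1.65. Of the retrieval genes, Dnm1 (dynamin-1) had 448.8 ± 44.46, Sh3gl2 (endophilin-A1) 124.0 ± 5.70 and Amph (amphiphysin) 79.9 ± 5.72.

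**Figure D1:**
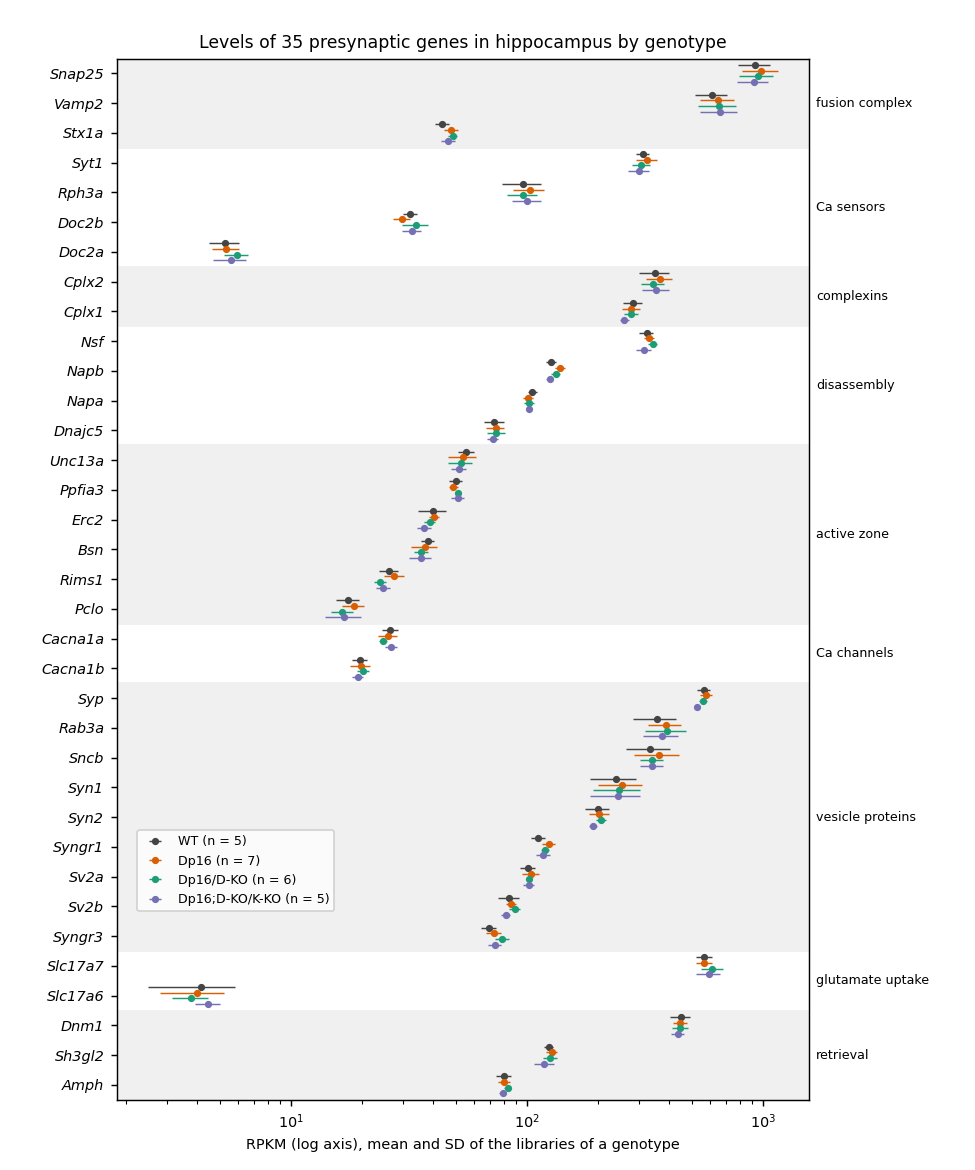
Mean RPKM (log axis) of each of the 35 genes in each genotype, ordered by role and by WT level within a role. Bars are 1 SD over the libraries of the genotype. The 4 genotypes of a gene sit close together, while genes span 224-fold, from Snap25 at 930.0 RPKM in WT to Slc17a6 at 4.15.

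The members varied little between libraries. The coefficient of variation over all 23 had a median of 8.18%, from 4.33% in Napa to 25.8% in Slc17a6, and for 6818 tested genes with a mean of at least 10 RPKM the median was 9.26%. After Slc17a6, the most variable were Syn1 at 20.9%, Rab3a at 17.4%, Sncb at 16.8%, Vamp2 at 16.1% and Snap25 at 15.5%, all of them among the members that differed most between batches, as described further on.

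Dp16 was set against WT to see whether genes outside the duplicated segment differ. No member was called (0 of 35, where limma called 1.45% of the 13971 genes tested, at an adjusted p under 0.05). An unadjusted p under 0.05 was given to 4 members, against 13.8% of all genes. On the log2 scale of RPKM + 0.1, 28 of the 35 changes were above 0, where 45.4% of all genes were, and the median was 0.04 against -0.01 for all genes. All 9 vesicle proteins, all 3 fusion genes and all 3 retrieval genes had positive values, none of them called. Of 15 pan-neuronal markers 14 also had positive values, with a median of 0.08 and 0 called. The summed level of 15 choroid plexus markers also varied, with medians of 1889 RPKM in WT (74.6 to 2892), 194.4 in Dp16 (102.7 to 4463), 148.6 in the libraries with the label Dp16/D-KO (51.4 to 3862) and 2952 in those with the label Dp16;D-KO/K-KO (85.6 to 4438). These ranges overlap widely, and the part of such RNA in the members' values was not tested in any comparison. In bulk tissue, fewer cells of a type and less RNA per cell cannot be told apart. Without WT F1 and M3 the count of positive members was 27 and the median 0.05, with 0 called (background 0.687%).

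Napb, an adaptor that brings NSF to spent fusion complexes (chr2:148693985-148732420, mm10), had the smallest p of the members in this comparison. In WT it had 131.9 RPKM in F1, 121.8 in F2, 132.8 in M2, 126.8 in M3 and 118.6 in M4. In Dp16 the lowest, median and highest of 7 libraries were 129.9, 141.5 and 147.9. In the libraries with the label Dp16/D-KO the same values over 6 were 127.8, 130.4 and 139.4. Most Dp16 libraries lay above WT, but the ranges overlapped. The libraries with the label Dp16;D-KO/K-KO had 121.7 RPKM in F1, 125.7 in F2, 129.2 in M1, 120.1 in M2 and 128.5 in M3, all below the lowest Dp16 library and within the WT range. Napb was 0.13 higher in Dp16 than in WT (95% interval 0.05 to 0.22, limma adjusted p = 0.0987), with 0.10 in batch 1 and 0.17 in batch 2, and 0.15 without WT F1 and M3 (adjusted p = 0.211). From Dp16 to the libraries with the label Dp16;D-KO/K-KO its change was -0.15 (-0.23 to -0.07, adjusted p = 0.158). Those comparisons share the 7 Dp16 libraries, so their opposite signs are not independent. The authors' deposited table calls Napb in both, at 0.15 (adjusted p = 0.0444) and -0.16 (adjusted p = 0.0430), where it calls 0.884% and 0.28% of all genes. It calls no other member in any of the 6 comparisons, and in the rest its share of all genes was 0.467% (Dp16/D-KO against Dp16), 0.309% (Dp16;D-KO/K-KO against Dp16/D-KO), 0.971% (Dp16/D-KO against WT) and 0.682% (Dp16;D-KO/K-KO against WT).

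Syngr1, a membrane protein of synaptic vesicles, came next in Dp16 against WT. WT libraries had 113.1 RPKM in F1, 109.7 in F2, 115.1 in M2, 122.1 in M3 and 100.5 in M4, and Dp16 had a lowest, median and highest of 110.5, 124.5 and 131.5. The groups overlapped through WT M3 and through the Dp16 library M3. The change was 0.14 (0.05 to 0.24, limma adjusted p = 0.136), with 0.20 in batch 1 and 0.10 in batch 2. Without WT M3 alone it was 0.19 and passed the threshold (adjusted p = 0.0240), and without both WT F1 and M3 it was 0.18 and did not (adjusted p = 0.0925). Rab3a followed with 0.15 (adjusted p = 0.194) and Stx1a with 0.13 (adjusted p = 0.265), or 0.12 (adjusted p = 0.504) and 0.10 (adjusted p = 0.620) without those 2 libraries.

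**Figure D2:**
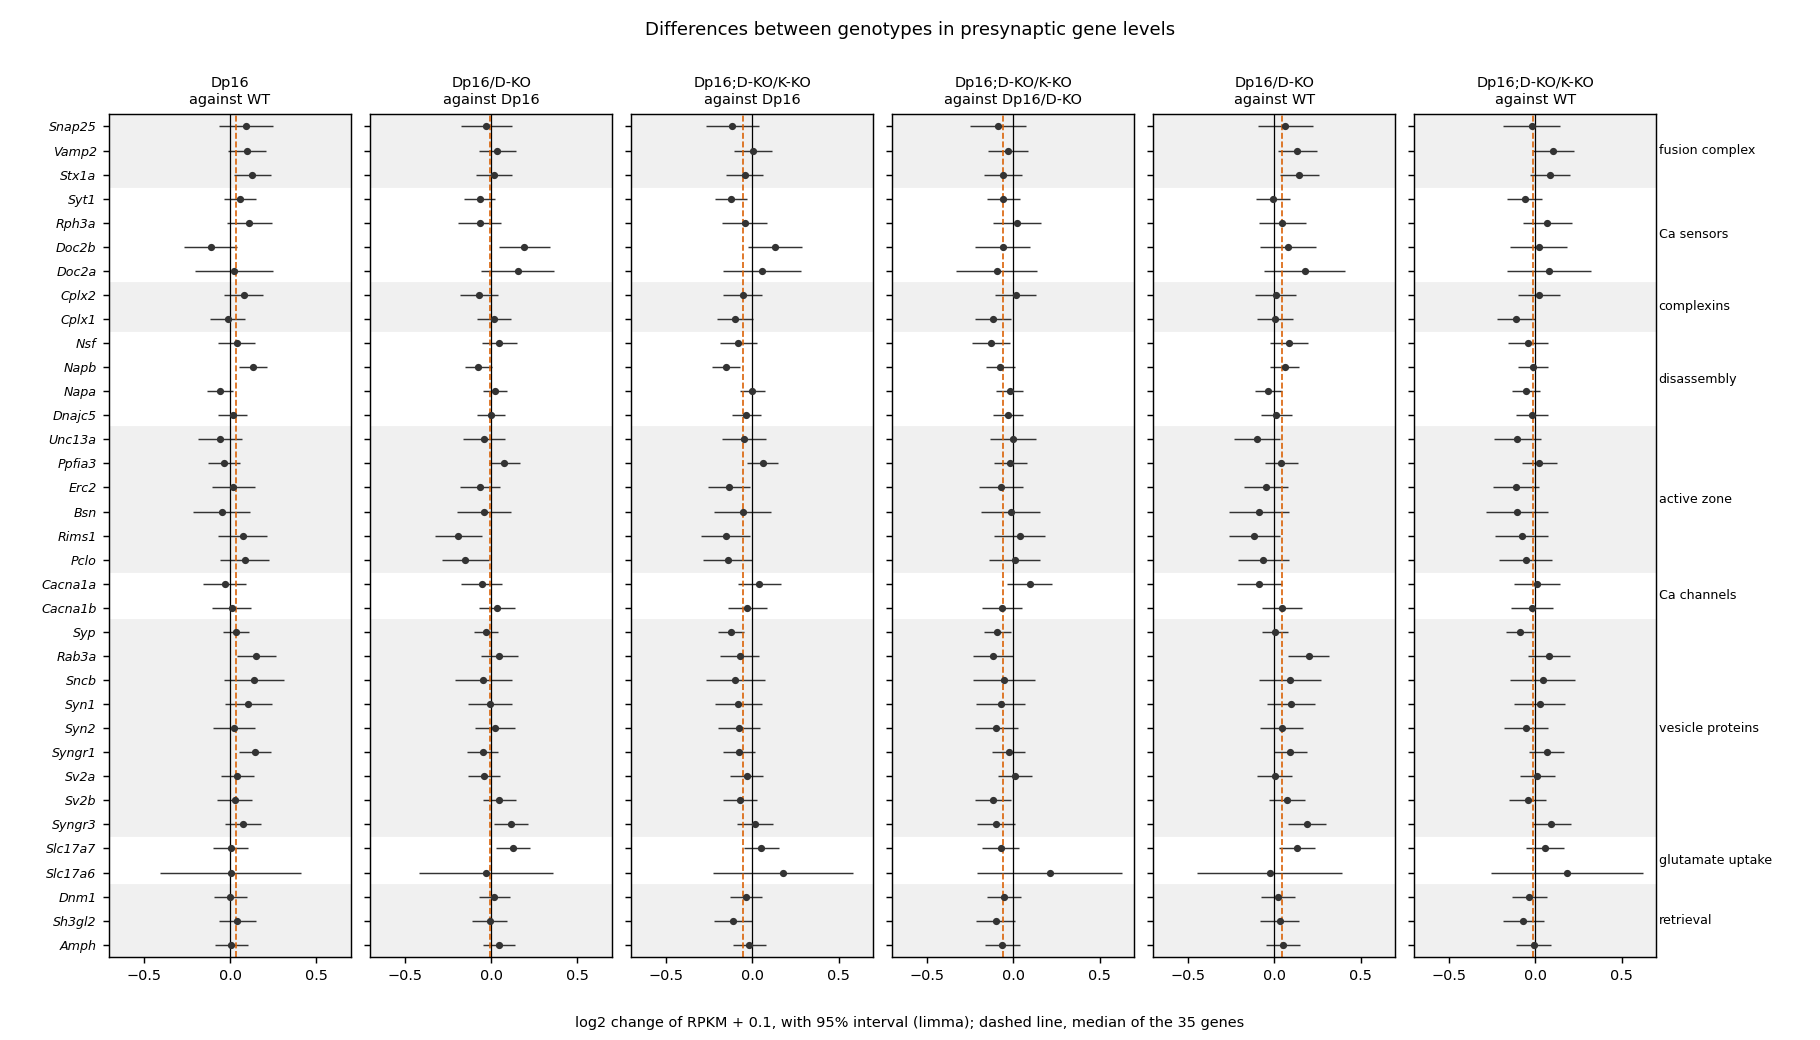
Difference of each of the 35 genes in the 6 comparisons of genotypes, as log2 change of RPKM + 0.1 with its 95% interval from limma, ordered by role; dashed lines mark the median of the members. No gene was called in any panel, and the medians lie between -0.06 and 0.04.

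Against Dp16, the libraries with the label Dp16/D-KO had no member called (0 of 35, background 0.143%). An unadjusted p under 0.05 was given to 5 members, against 15.2% of all genes. Positive and negative values were balanced, 16 and 19, with a median of -0.01 against 0.01 for all genes. Of 6 active zone genes 5 had negative values, and that group held Rims1, with the smallest p of the members. Rims1 had a lowest, median and highest of 24.5, 27.3 and 30.7 RPKM in Dp16. In the libraries with the label Dp16/D-KO these were 22.5, 23.9 and 26.1, so the ranges overlapped. Its change was -0.19 (-0.32 to -0.05, limma adjusted p = 0.183), with -0.17 in batch 1 and -0.20 in batch 2. Pclo had -0.15 (adjusted p = 0.289). On the other side, Doc2b, a calcium sensor, had 0.19 (0.05 to 0.34, adjusted p = 0.209), with 26.6 to 34.2 RPKM in Dp16 and 29.7 to 41.6 in the libraries with the label Dp16/D-KO. Slc17a7 had 0.13 (adjusted p = 0.212) and Syngr3 0.12 (adjusted p = 0.265). In this comparison the summed level of 15 myelin markers was lower in the libraries with the label Dp16/D-KO (1404 to 2912 RPKM, median 2328) than in Dp16 (2424 to 3528, median 3231). Its part in the changes of the members was not tested.

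The libraries with the label Dp16;D-KO/K-KO had no member called against Dp16 (0 of 35, background 0.0358%), and an unadjusted p under 0.05 was given to 6, against 11.3% of all genes. Here 26 members had negative values and 9 positive, where 58.4% of all genes were positive, and the median was -0.06 against 0.02 for all genes. The negative values included 8 of 9 vesicle proteins, 5 of 6 active zone genes, both complexins and all 3 retrieval genes. Of the pan-neuronal markers 11 of 15 were negative too, with a median of -0.06, and the medians of the choroid plexus sum differed as given above. Napb was the only member whose ranges did not overlap, a pattern that 0.659% of all genes showed. Syp, an abundant integral protein of the vesicle, had a lowest, median and highest of 539.9, 561.8 and 626.7 RPKM in Dp16. In the libraries with the label Dp16;D-KO/K-KO it had 538.4 in F1, 533.7 in F2, 507.6 in M1, 521.9 in M2 and 546.2 in M3. The ranges met only at their edges, and the change was -0.12 (-0.20 to -0.05, limma adjusted p = 0.207), with -0.11 in batch 1 and -0.12 in batch 2. Syt1 had the same change of -0.12 (adjusted p = 0.310), followed by Erc2 at -0.13, Rims1 at -0.15 and Sh3gl2 at -0.11.

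Between the libraries with the label Dp16;D-KO/K-KO and those with the label Dp16/D-KO no member was called, and limma called 0% of all genes. The authors' deposited table calls 53 genes there and no member. An unadjusted p under 0.05 was given to 5 members, against 9.02% of all genes. The change was negative for 28 members and positive for 7, with a median of -0.06, and 51.6% of all genes were positive. Syp had -0.09 (limma adjusted p = 0.437), Nsf -0.13 (adjusted p = 0.466), Sv2b -0.12, Cplx1 -0.12 and Rab3a -0.12. The myelin sum differed here as well, with 2591 to 3495 RPKM (median 2858) in the former group, and the choroid plexus sum had a median of 2952 RPKM against 148.6. Their part was not tested.

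Against WT, the libraries with the label Dp16/D-KO had no member called (0 of 35, background 1.28%), with an unadjusted p under 0.05 in 5, against 13.7% of all genes. Positive values were given to 26 members, all 9 vesicle proteins and all 3 fusion genes among them, with a median of 0.04, and 46.9% of all genes were positive. Of 6 active zone genes 5 were negative, with a median of -0.08. Without WT F1 and M3 the count of positive members was 26 too and the median 0.05, with Syngr3 as the 1 called (background 1.35%). The choroid plexus sum differed in its median here as well. Syngr3, a vesicle protein of the synaptogyrin family, had the smallest p. It had 70.2 RPKM in WT F1, 68.0 in F2, 63.7 in M2, 77.0 in M3 and 65.5 in M4. In the libraries with the label Dp16/D-KO the lowest, median and highest were 70.6, 78.3 and 86.5. The ranges overlapped, through WT M3. The change was 0.19 (0.08 to 0.30, limma adjusted p = 0.0765), with 0.26 in batch 1 and 0.16 in batch 2. Without WT M3 it was 0.23 and was called (adjusted p = 0.0134), and without both WT F1 and M3 it was 0.25 and was called (adjusted p = 0.0220). Leaving out WT M3 also raised the genes called in this comparison from 179 to 387, so the call of Syngr3 came with a general rise.

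Rab3a, the GTPase that recruits release factors to the vesicle (chr8:70754679-70758686, mm10), depended on the batch for its level. In batch 1 it had 297.1 RPKM in WT F1 and 272.2 in WT M2, and 299.1, 329.6 and 348.8 in the Dp16/D-KO libraries F1, M1 and M2. In batch 2 it had 445.7 in WT F2, 357.9 in WT M3 and 411.8 in WT M4, and 458.1, 465.3 and 469.5 in the Dp16/D-KO libraries F2, F3 and M3. Within each batch as labelled, the libraries with the label Dp16/D-KO lay above the WT libraries. The share of all genes with that pattern was not computed. WT M3 lay near batch 1 on the batch score, and its 357.9 RPKM was above the Dp16/D-KO libraries of batch 1. The pattern thus depends on the batch label of WT M3. The change was 0.20 (0.08 to 0.32, limma adjusted p = 0.0900), with 0.19 in batch 1 and 0.21 in batch 2, and 0.17 without WT F1 and M3 (adjusted p = 0.151). It was called at 0.25 without WT F2 (adjusted p = 0.0191) and at 0.22 without the Dp16/D-KO library F1 (adjusted p = 0.0484). The change of Stx1a was 0.15, of Slc17a7 0.13 and of Vamp2 0.13, with adjusted p of 0.221 or more.

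Against WT, the libraries with the label Dp16;D-KO/K-KO had no member called (0 of 35, background 0.752%), with an unadjusted p under 0.05 in 2, Syp at -0.09 and Cplx1 at -0.11, against 9.83% of all genes. Signs were 16 positive and 19 negative, where 51.4% of all genes were positive, and the median was -0.01. Without WT F1 and M3 the signs turned to 20 positive and 15 negative, with a median of 0.01 and 0 called (background 0.601%). Over all 4 genotypes at once, limma's test of any difference called 0 of 35 members and 1.59% of all genes, with an unadjusted p under 0.05 in 7 members and 17.0% of all genes, and with the smallest adjusted p, 0.0984, in Napb. The authors' deposited table gives an unadjusted p under 0.05 to 3 members and 6.32% of all genes in Dp16 against WT, to 2 and 8.72% in Dp16/D-KO against Dp16, and to 6 and 5.51% in Dp16;D-KO/K-KO against Dp16. In the authors' deposited table these were 4 and 5.98% in Dp16;D-KO/K-KO against Dp16/D-KO, 3 and 6.82% in Dp16/D-KO against WT, and 0 and 4.96% in Dp16;D-KO/K-KO against WT.

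**Figure D3:**
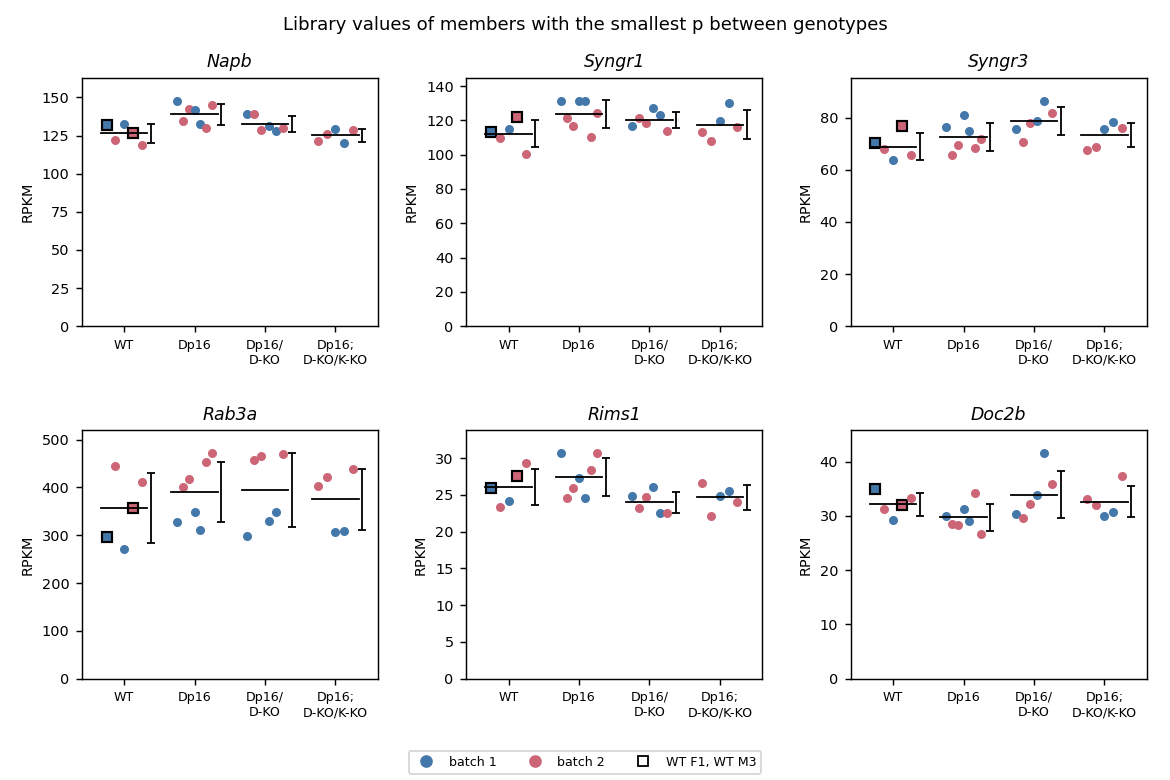
RPKM of Napb, Syngr1, Syngr3, Rab3a, Rims1 and Doc2b in each of the 23 libraries by genotype, with the axis from 0; lines are means, bars 1 SD, colours the batches, and black-edged squares WT F1 and WT M3. Differences between genotypes are small beside the levels, and for Rab3a they are smaller than the difference between batches.

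How large a difference these data would leave room for can be read from the 95% intervals. Across the 6 comparisons the standard error of a member had a median of 0.05 to 0.06 on the log2 scale. Between 31 and 34 of the 35 members had intervals that lay within 0.3 on either side of 0 (1.23-fold), and 34 or 35 lay within 0.585, the step from 2 copies to 3. Slc17a6, the member with the lowest level, had the widest interval in every comparison, reaching from 0.409 to 0.633 away from 0. The bound next farthest from 0 belonged to Doc2a, Sncb or Rims1, depending on the comparison, at 0.295 to 0.408. A missed threshold therefore does not show that a member is equal between genotypes.

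The effect of Dp16 was also compared between batches and between sex letters. No member was called for such a difference (0 of 35 in either, where limma called 0% of all genes by batch). The smallest limma adjusted p of a member was 0.995 by batch and 0.984 by letter. By batch, the 3 WT libraries of batch 2 include M3, which lay near batch 1 on the batch score. That comparison was not repeated without M3, and its intervals were wide, as for Snap25 (-0.21 to 0.65). An unadjusted p under 0.05 was given to 0 members by batch (3.36% of all genes) and to 2 by letter (3.99% of all genes), Rab3a at 0.28 and Erc2 at -0.28. The comparison by letter rests on 5 WT libraries, of which F1 and M3 run against their letters. Without them limma called 0 members and 0.0215% of all genes by letter, with Rab3a at 0.30 (adjusted p = 0.709) and Erc2 at -0.36 (adjusted p = 0.617), and an unadjusted p under 0.05 was given to 4 members and 6.93% of all genes. With F1 given the letter M, and M3 the letter F and batch 1, which was chosen after seeing the data, these were 0 members called, 5 members and 11.6%, with Rab3a at 0.35 (adjusted p = 0.288) and Erc2 at -0.21 (adjusted p = 0.439). Between the letters M and F themselves 0 members were called (background 0.0429%), and Cplx1 alone had an unadjusted p under 0.05, at 0.08, as had 9.17% of all genes.

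Other genes of the pathway came from lists of relatives of the members, of vesicle recycling and of vesicle filling, 108 genes of which 107 were tested. In Dp16 against WT 4 were called higher and 2 lower, where 1.45% of all genes were called. The called higher genes Synj1 (synaptojanin-1, the phosphatase that uncoats retrieved vesicles) and Itsn1 (intersectin-1, an endocytic scaffold) lie on chromosome 16 in the duplicated segment. Synj1 was 0.57 higher (limma adjusted p = 4.63e-08) and Itsn1 0.49 higher (adjusted p = 1.10e-05), near the 0.585 of an added copy. Both were called in the libraries with the label Dp16/D-KO (0.55 and 0.41) and Dp16;D-KO/K-KO against WT as well, and both in all 3 without WT F1 and M3 (adjusted p of 0.00466 or less).

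Slc30a3, the zinc transporter ZnT3 that fills glutamate vesicles with zinc, fell in Dp16. WT libraries had 47.0 RPKM in F1, 50.4 in F2, 43.2 in M2, 43.5 in M3 and 40.8 in M4. Dp16 had a lowest, median and highest of 29.9, 34.9 and 38.9, all below WT. This is no separate evidence, as the gene is described because it was called. The libraries with the label Dp16/D-KO had 38.4, 40.5 and 43.6 and overlapped both groups. The change from WT to Dp16 was -0.40 (-0.55 to -0.25, limma adjusted p = 0.00303), with -0.34 in batch 1 and -0.45 in batch 2, and it was called without WT F1 and M3 (adjusted p = 0.0346). Against Dp16 it was 0.26 in the libraries with the label Dp16/D-KO (adjusted p = 0.112) and 0.19 in those with the label Dp16;D-KO/K-KO (adjusted p = 0.309), which share the Dp16 libraries with the first comparison and were not called.

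Vamp1, synaptobrevin-1, the relative of Vamp2, rose in Dp16 from 51.0 RPKM in WT F1, 47.5 in F2, 47.8 in M2, 48.8 in M3 and 52.5 in M4 to a lowest, median and highest of 55.5, 55.9 and 59.5. The ranges did not overlap, which is no separate evidence either, as Vamp1 is described because it was called. The change was 0.20 (0.11 to 0.30, limma adjusted p = 0.0196), or 0.21 without WT F1 and M3 (adjusted p = 0.0988). Rab3b, a relative of Rab3a, rose by 0.33 (adjusted p = 0.0467) and Rab3d fell by 0.31 (adjusted p = 0.0380), with WT at 4.49 to 5.94 RPKM. Neither was called without WT F1 and M3 (adjusted p = 0.337 and 0.226), where the count was 2 higher and 1 lower. Vamp1 is also in the list of thalamic markers used here, whose summed level was 98.2 to 115.5 RPKM in WT and 109.8 to 132.5 in Dp16. That sum includes Vamp1 itself, with a mean of 49.5 RPKM in WT and 57.1 in Dp16. It is therefore no separate measure of thalamic RNA beside Vamp1. Of the 11 tested genes of that list 7 had positive values in Dp16, with a median of 0.08 and with Vamp1 as the 1 called. Of 13 interneuron markers all 13 were positive, with a median of 0.14 and 1 called. The part of RNA from these cells in the change of Vamp1 was not tested.

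In the libraries with the label Dp16/D-KO against WT 3 of the 107 were called higher and 1 lower, where 1.28% of all genes were called. Beside Synj1 and Itsn1 the higher one was Atp6v0c, a subunit of the proton pump that drives filling, at 0.18 (limma adjusted p = 0.0263), which was not called without WT F1 and M3 (0.18, adjusted p = 0.0699). The lower one was Syn3, the least abundant synapsin, at -0.27 (adjusted p = 0.0193), or -0.31 without these libraries (adjusted p = 0.0328). Syn3 shares 1733 exon bases with Timp3 on the opposite strand, so its values of 4.46 to 6.15 RPKM are uncertain. In the libraries with the label Dp16;D-KO/K-KO against WT Synj1 and Itsn1 were called and no other. In the 3 comparisons among carriers of the duplication limma called 0 of the 107, with an unadjusted p under 0.05 in 26 (Dp16/D-KO against Dp16, 15.2% of all genes), 15 (Dp16;D-KO/K-KO against Dp16, 11.3%) and 16 (Dp16;D-KO/K-KO against Dp16/D-KO, 9.02%). For comparison, of 20 genes of the postsynaptic density, on the receiving side, 0 were called in Dp16 against WT, with 10 positive, 10 negative and a median of 0.00.

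The largest differences among the members were between batches. Of the 35, limma called 21, 13 of them higher and 8 lower in batch 2, where 49.4% of all genes were called, 16.0% higher and 33.4% lower. Without WT F1 and M3 the counts were 14 and 8 (background 51.7%). The strain, the RNA type and the wording of the protocol in the labels differ together between the batches and cannot be told apart, and age is given for batch 1 only.

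Syn1, synapsin I (chrX:20860511-20920918, mm10), whose promoter holds both motifs shown above, had the largest batch difference. In batch 1 its lowest, median and highest of 10 libraries were 177.8, 191.3 and 212.0 RPKM. In batch 2 they were 223.5, 288.0 and 329.1 over 13 libraries, and the ranges did not overlap. The lowest of batch 2 was WT M3, and without it the lowest was 275.8. The change was 0.57 (0.47 to 0.67, limma adjusted p = 1.31e-07).

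Rab3a was 0.47 higher in batch 2 (adjusted p = 1.31e-07, limma), with 272.2 to 348.8 RPKM in batch 1 and 357.9 to 472.1 in batch 2. Vamp2 was 0.43 higher (adjusted p = 2.20e-07), with 515.1 to 555.0 RPKM against 574.2 to 786.9. These were, with Syn1, the 3 members whose ranges did not overlap, as did 1.92% of all genes. Without WT F1 and M3 there were 7 such members against 10.7% of all genes, the added ones being Snap25, Rph3a and Cplx2 above and Dnajc5 below. Snap25 was 0.36 higher, with medians of 801.6 and 1065 RPKM, Sncb 0.38, Rph3a 0.37 and Cplx2 0.30.

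On the lower side, the priming factor Unc13a was at -0.22 (limma adjusted p = 0.000579), with medians of 57.8 RPKM in batch 1 and 50.0 in batch 2 (uncertain for its overlap with Colgalt1). The chaperone Dnajc5 was at -0.19 (adjusted p = 2.81e-05), with 75.5 to 81.8 RPKM against 64.2 to 77.8. There WT M3 was the highest of batch 2, and without it the highest was 71.1. Syn2, the paralogue of Syn1, moved the other way from it, at -0.14 (adjusted p = 0.00994), and the remaining 5 lower members (Sv2a, Sv2b, Cacna1b, Syngr1 and Erc2) lay between -0.12 and -0.10. Members of 1 role were split: of the fusion complex Snap25 and Vamp2 were higher and Stx1a was not called, at -0.07.

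The higher and lower members differed in level and length. The 13 higher had a median mean level of 354.1 RPKM and a median longest coding transcript of 2915 bases, the 8 lower had 79.2 RPKM and 5878 bases, and the 14 not called had 48.5 RPKM and 3952 bases. Pclo, with the longest transcript at 20084 bases and 17.4 RPKM, was an exception, at 0.22. These medians describe the members and were not tested. In every genotype comparison above, batch was a term of the model.

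**Figure D4:**
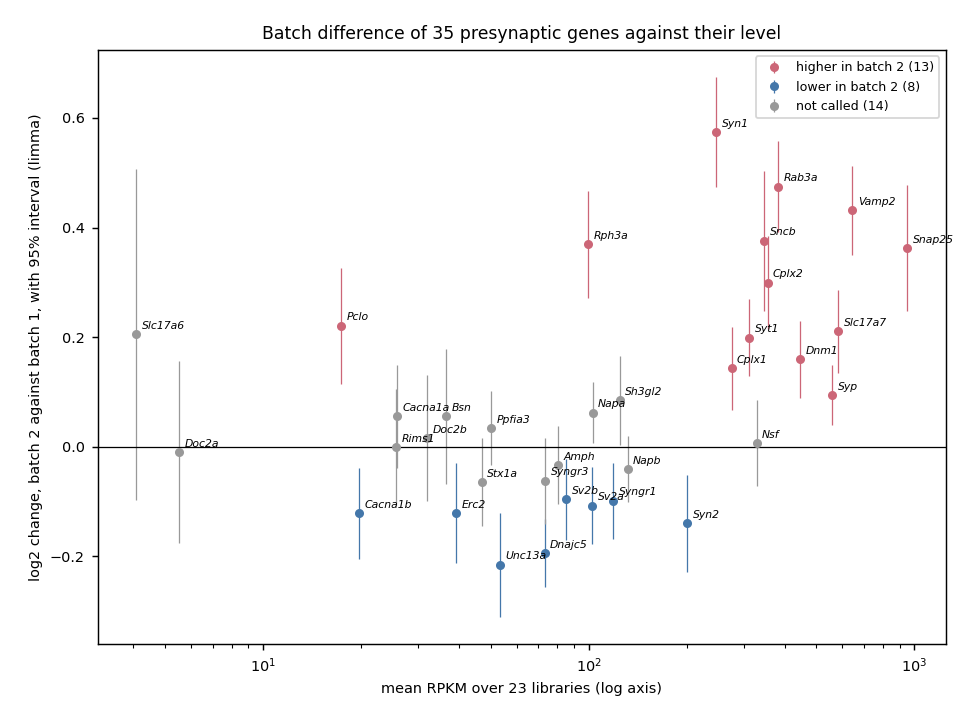
Log2 change between batch 2 and batch 1 with its 95% interval (limma) against the mean RPKM over 23 libraries (log axis) for each of the 35 genes. Of the 13 members called higher all but Pclo and Rph3a have means of over 200 RPKM, and the 8 called lower lie at about 200 RPKM or less.

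**Figure D5:**
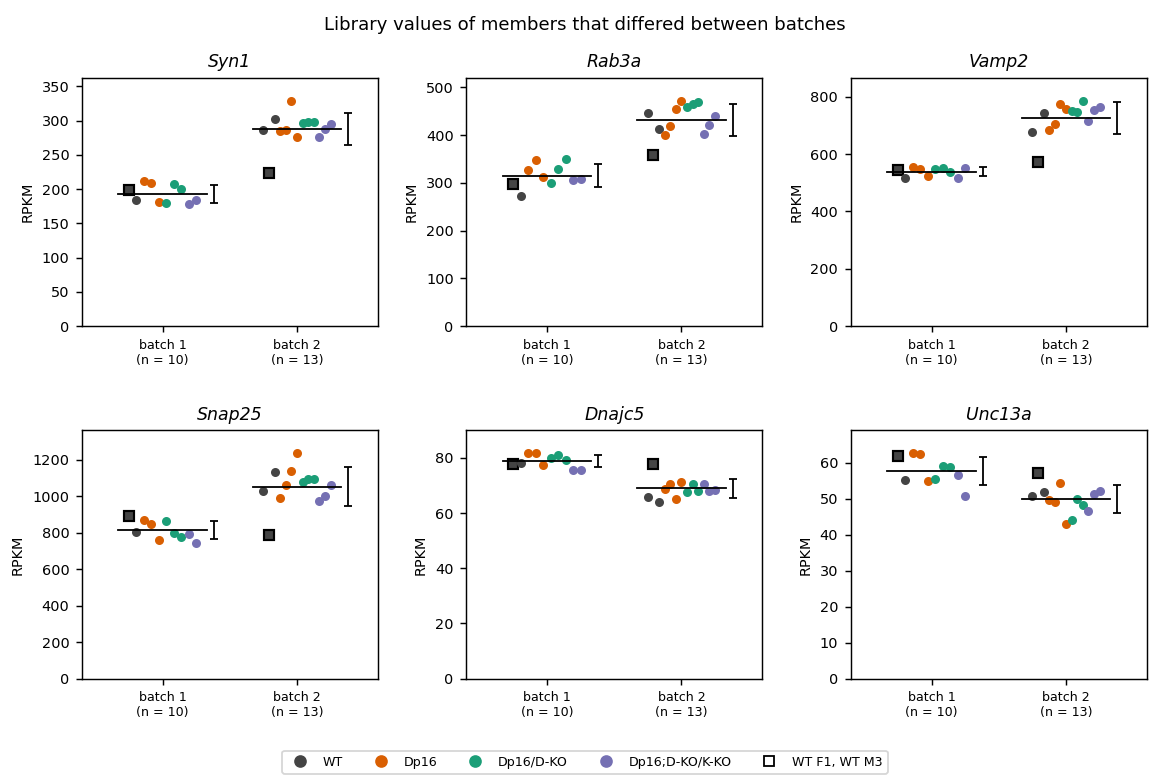
RPKM of Syn1, Rab3a, Vamp2, Snap25, Dnajc5 and Unc13a in each library by batch, with the axis from 0; lines are means, bars 1 SD, colours the genotypes, and black-edged squares WT F1 (batch 1) and WT M3 (batch 2). Genotypes are mixed within a batch, and WT M3 lies apart from the other libraries of batch 2 in Syn1, Rab3a, Vamp2, Snap25 and Dnajc5.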

How the data were processed

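Messenger RNA of 23 hippocampal libraries was measured. The aligner was HISAT and the build mm10, per the submitters' processing notes. Counting, strand use and gene lengths: not given in the sources used here. Hippocampal RPKM values rounded to 2 decimals were deposited by the authors, with a log2 fold change, p-value and adjusted p-value for 6 comparisons, by a test likewise unnamed. Here log2(RPKM + 0.1) was used, and the 13971 genes whose mean RPKM reached 0.5 were tested with limma 3.58.1 (R 4.3.3), with an intensity trend, 4 genotypes, batch and sex letter in 1 model of 17 residual degrees of freedom, a two-sided test and Benjamini-Hochberg adjustment over all genes. Calls are at an adjusted p under 0.05. The scripts were tested on simulated data. Nothing says that libraries of a group came from separate mice, so p-values measure the spread between libraries, which may be technical.

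Replicate labels were not taken as pairs in the main model. Deviations of 26 same-label pairs correlated by 0.0489 on average and of 26 other pairs by -0.0175, which cannot exclude pairing. The members and gene lists were chosen with earlier results of these data known. All members may be named, with, of the other lists, the called genes and the 4 with the smallest p. Sequences are from RefSeq (GRCm38.p6) and exon overlaps from GENCODE M21.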

Additional observations from a re-analysis of the deposited data

Results flagged for a closer look

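In 5 of 140 combinations of a member and a genotype, 1 library stood apart from the rest of its group by the gap test of Dixon. Chance would give about 7, at 1 in 20. Cacna1a, a calcium channel subunit, was at 22.72 RPKM in WT M2, where the other WT libraries had 26.58 to 27.88. Syp was at 521.8 RPKM in the Dp16/D-KO library F1, where the others of that label had 561.5 to 577.9. Slc17a6 was at 6.66 RPKM in Dp16 M4, where the other Dp16 libraries had 3.05 to 4.02. Dnm1 was at 483.2 RPKM in the Dp16;D-KO/K-KO library M3, where the others had 420.4 to 431.5. Sh3gl2 was at 134.0 RPKM in WT M4, where the others had 120.2 to 123.2.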

How the results depend on the processing

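Under 14 alternatives and 23 fits that left out 1 library each, the medians of the members moved by less than the spread between libraries (SD 0.053), though the medians closest to 0 turned sign in several of them: in batch 2 alone Dp16/D-KO against Dp16 went from -0.01 to 0.02, and without WT F1 and M3 Dp16;D-KO/K-KO against WT went from -0.01 to 0.01. Of 4830 values of a member in a comparison with 1 library left out, 4 passed the threshold newly, as did 4 of 2940 under the other alternatives, and the rest kept their side. Syngr3 in Dp16/D-KO against WT was called with array weights (0.20, adjusted p = 0.0406), without WT F1 and M3 (0.25) and without WT M3 (0.23). With F1 given the letter M, and M3 the letter F and batch 1, a choice made after seeing the data, 1 member was called in each of 2 comparisons, Syngr3 there (0.20, adjusted p = 0.0400) and Syngr1 in Dp16 against WT (0.17, adjusted p = 0.0326), while positive members numbered 19 and 24 in these, with medians of 0.02 and 0.02. The cause was not tested.

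Counts over all genes moved more, from 202 in Dp16 against WT, 20 in Dp16/D-KO against Dp16, 5 in Dp16;D-KO/K-KO against Dp16, 0 in Dp16;D-KO/K-KO against Dp16/D-KO, 179 in Dp16/D-KO against WT and 105 in Dp16;D-KO/K-KO against WT. In that order, without the batch term they were 97, 0, 2, 0, 95 and 63. With only the groups compared they were 94, 52, 16, 1, 91 and 55. In batch 1 alone they were 48, 0, 1, 0, 44 and 52, and in batch 2 alone 65, 0, 0, 0, 62 and 52, with fewer libraries. Without the filter Dp16/D-KO against Dp16 had 7 and Dp16;D-KO/K-KO against Dp16/D-KO 1. With median ratio scaling Dp16;D-KO/K-KO against Dp16 had 10, and Dp16 against WT was split into 132 higher and 57 lower, against 119 and 83. Without WT F1 and M3 Dp16 against WT had 96 and Dp16/D-KO against Dp16 had 89. With the changed letters and batch Dp16/D-KO against Dp16 had 62 and Dp16;D-KO/K-KO against Dp16 had 30. Array weights gave 219, 57 and 24 for the 3 comparisons among carriers. With a replicate block Dp16/D-KO against Dp16 had 0, and no call of a member changed. The numbers share only a label, and of the same-label pairs 14 of 26 correlated over 0.1, against 8 of 26 other pairs.

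Leaving out 1 library, members called ran from 0 to 1 in Dp16 against WT and in Dp16/D-KO against WT (without WT M3, WT F2 or the Dp16/D-KO library F1) and stayed 0 elsewhere. Genes called ran from 116 (without WT F1) to 274 (without WT M2), from 0 (without Dp16 F2) to 105 (without WT M3), from 0 to 33 (without WT M3), from 0 to 1, from 108 (without WT M4) to 387 (without WT M3) and from 74 to 116. Median changes of the members ran from 0.01 to 0.05, -0.02 to 0.01, -0.07 to -0.03, -0.08 to -0.04, 0.03 to 0.06 and -0.03 to 0.00. Of 60 ratios of marker sums between groups, 4 moved when mean log2 values replaced the sums. Depth was only estimated, so no counting interval was computed, and it limits Slc17a6 and Doc2a most.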
